A study of Rattus norvegicus with 6 samples.

Results

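The genes of sterol and fatty acid synthesis, their SREBP regulators, and the genes of sterol transport and efflux were described in primary rat hippocampal neurons in which Cyclin Y (CCNY) was overexpressed or knocked down. The 37 genes were chosen by function, with earlier results of these data known, in which Insig1, Nsdhl, Msmo1 and Stard4 had been noticed in CCNY-shRNA. Their values are therefore given as a description, with no p-values, and the counts of these genes are set beside the share over all genes. Of the 37 genes, 35 had a row among the 17066 genes of the deposited table, and Scd was listed under its older symbol Scd1. Mvk and Fasn were not analysed here. The 35 genes comprised 17 sterol synthesis enzymes, 5 SREBP regulators, 3 genes of intracellular sterol transport, 6 of fatty acid synthesis and 4 of cholesterol efflux and lipoproteins, and all 35 passed the filter on low values.

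The neurons came from the hippocampi of Sprague-Dawley rat embryos at E18 and were grown in culture. On day 5 or 6 in vitro (DIV) every culture received a lentivirus made from the same EGFP vector, either EGFP alone as the control, CCNY-WT-EGFP for overexpression, or CCNY-shRNA-EGFP for knockdown, so that control neurons carried virus and EGFP as well. RNA was taken at DIV 14 and sequenced as 2 libraries per condition. The shRNA control was the EGFP virus and not another hairpin, and the labels name no separation of infected from uninfected cells. Nothing in the labels says whether the 2 libraries of a condition came from separate cultures, so the p-values below measure only the spread between these libraries.

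Cholesterol in the brain is made locally, because lipoproteins of the blood do not pass into it, and neurons use it for membranes and synapses. Acetyl-CoA is converted through mevalonate and squalene to lanosterol, and a chain of enzymes then trims lanosterol to cholesterol. The transcription factors Srebf2 (SREBP2) and Srebf1 (SREBP1) switch on the genes of sterol and fatty acid synthesis when membrane sterol is low. They are escorted out of the endoplasmic reticulum by Scap, and Insig1 and Insig2 hold Scap back when sterol is plentiful. Stard4, Npc1 and Npc2 move sterol between membranes, and Abca1, Abcg1 and Apoe export it on lipoproteins, which in brain are made mostly by astrocytes.

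Promoters of sterol genes are known to be bound by SREBP together with NF-Y, whose box reads CCAAT. Promoter windows of RefSeq (build GRCr8, from 250 bases before to 50 bases after the start) were found for 27 of the genes, in 30 windows, since some genes have several starts. The NF-Y box CCAAT, or ATTGG on the other strand, was present in 21 of these 30 windows (70%), and in 37.5% of all 33469 windows and 37.2% of the 8211 windows of genes tested here. Among the sterol synthesis enzymes 11 of 14 genes with a window held it, and among the SREBP regulators 4 of 5. The E-box CACGTG, which reads the same on both strands, was present in 4 of 30 windows (13.3%), against 6.42% of all windows and 9.41% of those of tested genes. The SREBP element searched as TCACNCCAC on both strands was in 0 of the 30 windows and in 1.12% of all windows. At so low a share, 0 of 30 does not show that these promoters lack SREBP sites, and no other spelling was searched. These are matches of letters only. The boxes do not overlap one another in the stretches below.

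The 160 bases from 215 to 56 bases before the start are shown for Insig1, Msmo1 and Nsdhl, which were lowest against EGFP in CCNY-shRNA among the sterol synthesis enzymes and SREBP regulators with a window, and for Ebp, which was lowest in CCNY-WT among all genes with a window. Capitals mark CCAAT or ATTGG, and CACGTG in Insig1. All 4 read from 5′ to 3′ in the direction of the gene. The stretches lie at chr4:8057825-8057984 on the minus strand (Insig1), chr16:29746898-29747057 on the plus strand (Msmo1), chrX:155817145-155817304 on the plus strand (Nsdhl) and chrX:16971247-16971406 on the plus strand (Ebp), all upstream of the RefSeq start in GRCr8.
Insig1: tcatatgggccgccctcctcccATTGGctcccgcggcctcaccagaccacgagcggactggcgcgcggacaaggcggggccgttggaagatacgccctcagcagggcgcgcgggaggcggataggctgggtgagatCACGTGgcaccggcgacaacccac
Msmo1: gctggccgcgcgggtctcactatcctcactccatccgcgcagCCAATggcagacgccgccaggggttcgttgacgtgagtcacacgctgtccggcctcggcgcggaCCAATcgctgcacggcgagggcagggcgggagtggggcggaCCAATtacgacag
Nsdhl: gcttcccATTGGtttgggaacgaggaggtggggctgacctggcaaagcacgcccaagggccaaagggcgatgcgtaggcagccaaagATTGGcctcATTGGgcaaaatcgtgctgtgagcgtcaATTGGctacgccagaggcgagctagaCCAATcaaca
Ebp: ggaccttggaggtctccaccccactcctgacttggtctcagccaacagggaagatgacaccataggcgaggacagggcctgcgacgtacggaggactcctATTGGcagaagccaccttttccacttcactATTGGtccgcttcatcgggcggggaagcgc
Insig1 held 1 NF-Y box, beginning 193 bases before the start, and 1 E-box, beginning 79 bases before it. Msmo1 held 3 NF-Y boxes, at 173, 109 and 68 bases before the start, all on the strand of the gene. Nsdhl held 5, of which those at 208, 128, 119 and 91 bases lay on the other strand and that at 65 bases on the strand of the gene. Ebp held 2, at 115 and 85 bases, both on the other strand. The windows of Mvd and Npc2, which were higher in CCNY-shRNA, held 2 and 3 NF-Y boxes. Those of Cyp51 and Dhcr7, with a lower mean in both conditions, held 0. Whether the boxes go with the changes in level was not tested. The expression table was made on the older build rn4, and its values do not depend on these windows.

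Ccny, the targeted gene, stood at FPKM 43.1 and 42.3 with EGFP, 108 and 109 with CCNY-WT, and 5.98 and 6.19 with CCNY-shRNA, in the direction of the labels. FPKM is a fragment count scaled by transcript length and by the mapped fragments of the library, so levels can be set side by side between genes. Depth relative to EGFP replicate 1 ranged from 0.818 in CCNY-shRNA replicate 1 to 1.33 in CCNY-WT replicate 1. The summed FPKM of 10 neuronal markers ranged from 6342 to 6689 over the 6 libraries. Oligodendrocyte lineage markers summed to 56.0 and 55.0 with EGFP, 57.7 and 52.9 with CCNY-WT and 49.5 and 47.5 with CCNY-shRNA, lowest in both CCNY-shRNA libraries, with Sox10 at 0 in all libraries. Vascular and meningeal markers summed to 63.7 to 75.5, with Cldn5 at 0, and microglial markers to 0.546 to 1.41, with Cx3cr1 and Aif1 at 0. The 9 astrocyte markers summed to 540 and 580 with EGFP, 573 and 567 with CCNY-WT, and 472 and 545 with CCNY-shRNA.

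The genes of sterol synthesis were among the abundant transcripts of these neurons. Hmgcs1, which makes the HMG-CoA that enters the mevalonate pathway, ranked 47 among the 17066 genes in EGFP, and Fdps, the farnesyl diphosphate synthase, ranked 87. The lowest of the 35 genes was the cholesterol exporter Abca1, at rank 8727. The mean FPKM in EGFP was 966 ± 28.4 for Hmgcs1, 722 ± 10.4 for Fdps, 714 ± 32.6 for Apoe and 3.21 ± 0.290 for Abca1 (SD, n = 2). The 17 sterol synthesis enzymes together summed to 4404 and 4592 with EGFP, 4092 and 3986 with CCNY-WT, and 4030 and 3981 with CCNY-shRNA. Both other conditions thus lay below both EGFP libraries in the sum.

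**Figure D1:**
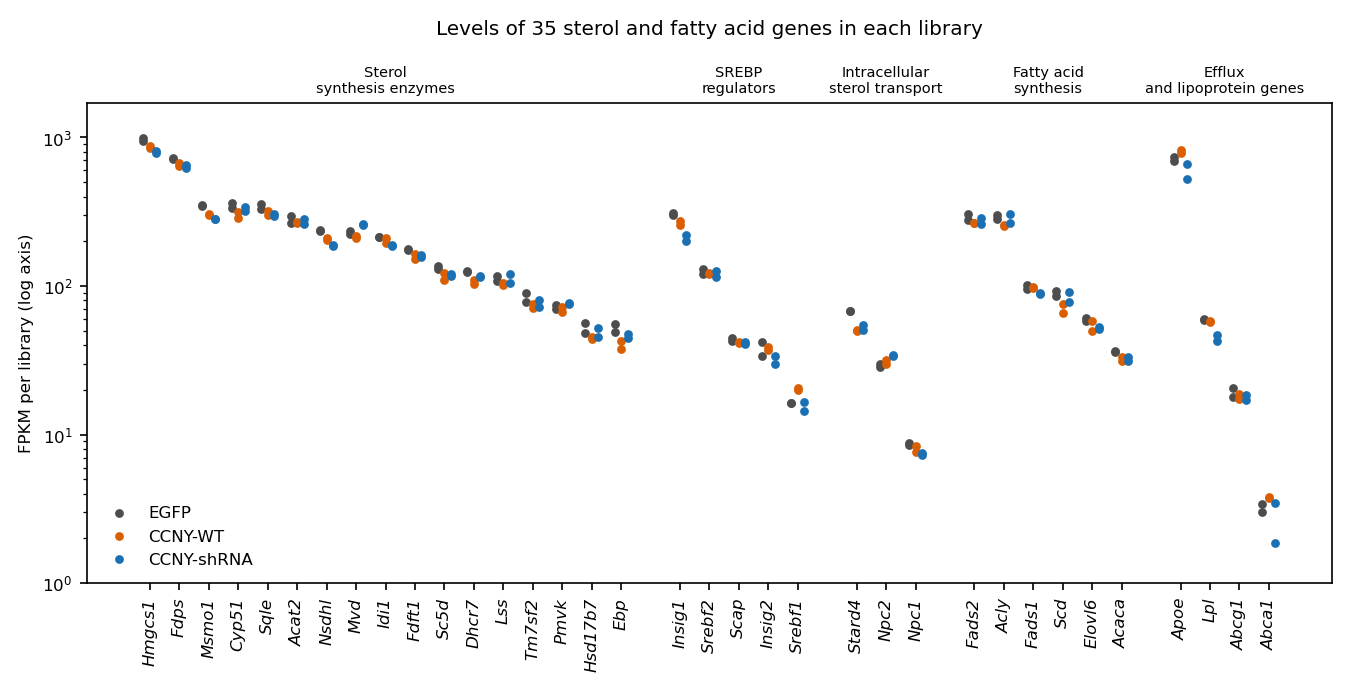
FPKM of each of the 35 genes in each of the 6 libraries, on a log axis, with 1 point per library, colours for EGFP, CCNY-WT and CCNY-shRNA, and genes ordered by level within the 5 functional groups. Levels spread from 986 for Hmgcs1 to 1.85 for Abca1, and within a gene the 3 conditions lie close together.

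Relative to EGFP, most of the 35 genes were slightly lower in both conditions. In CCNY-WT 30 of 35 genes had a lower mean, with a median log2 change of -0.13, and in CCNY-shRNA 32 of 35 had one, with a median of -0.15. Over all 10188 genes tested, 48.6% were lower in CCNY-WT and 49.8% in CCNY-shRNA, with medians of 0.0041 and 0. The 2 comparisons share the same 2 EGFP libraries and are therefore not independent. In bulk RNA, fewer cells of a type and less RNA per cell cannot be told apart.

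Both CCNY-WT libraries lay below both EGFP libraries for 24 of 35 genes (68.6%), where the share over all genes was 19.2%, and above them for 4 genes, where that share was 20.3%. Both CCNY-shRNA libraries lay below both EGFP libraries for 20 genes (57.1%), where the share over all genes was 24.5%, and above them for 3, where it was 23.9%. With 2 libraries against 2, an exact two-sided permutation test of a single gene cannot go below p = 0.333. By limma's test with Benjamini-Hochberg adjustment over all genes (threshold 0.05), 5 of the 35 genes were lower in CCNY-shRNA, namely Insig1, Stard4, Lpl, Nsdhl and Msmo1, where 0.579% of all genes were, and 0 were higher, where 0.167% of all genes were. In CCNY-WT limma called 0 genes lower and 0 higher, where it called 0% and 0.00982% of all genes. The latter share was 1 gene, the overexpressed Ccny itself. At an unadjusted limma p under 0.05, 15 of the 35 were lower and 1 higher in CCNY-WT. Of all 10188 genes 306 were lower and 390 higher at that level. In CCNY-shRNA 14 of the 35 were lower and 2 higher at that level, where 954 and 937 of all 10188 genes were. Since the genes were chosen with these contrasts known, nothing is read from these counts.

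The study set a log2 change of 0.33 for CCNY-shRNA and 0.3 for CCNY-WT as its thresholds. Insig1, Lpl, Stard4 and Abca1 were lower by at least 0.33 in CCNY-shRNA, where 7.59% of all genes were, and 0 of the 35 were higher by as much, where 5.52% of all genes were. Stard4, Ebp and Scd1 were lower by at least 0.3 in CCNY-WT, where 3.76% of all genes were, and Srebf1 was higher, where 4.59% were. The differences in size were modest. The most negative were those of Insig1 (-30.7%) and Lpl (-25.6%) in CCNY-shRNA and of Stard4 (-25.7%) in CCNY-WT.

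The 5 calls of limma were lost under several settings. The number of the 35 genes called became 0 without a filter on low values, without a trend in eBayes, or without EGFP replicate 1, EGFP replicate 2 or CCNY-WT replicate 1, and 1 without CCNY-WT replicate 2, 3 without CCNY-shRNA replicate 1 and 2 without CCNY-shRNA replicate 2. Over all genes, the calls in this comparison went from 76 to 2 without the filter, to 1 without a trend, to 1 without either EGFP library, to 18 without CCNY-WT replicate 1, to 26 without CCNY-WT replicate 2, to 86 without CCNY-shRNA replicate 1 and to 39 without CCNY-shRNA replicate 2. The direction of each of the 5 stayed the same in all these fits.

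**Figure D2:**
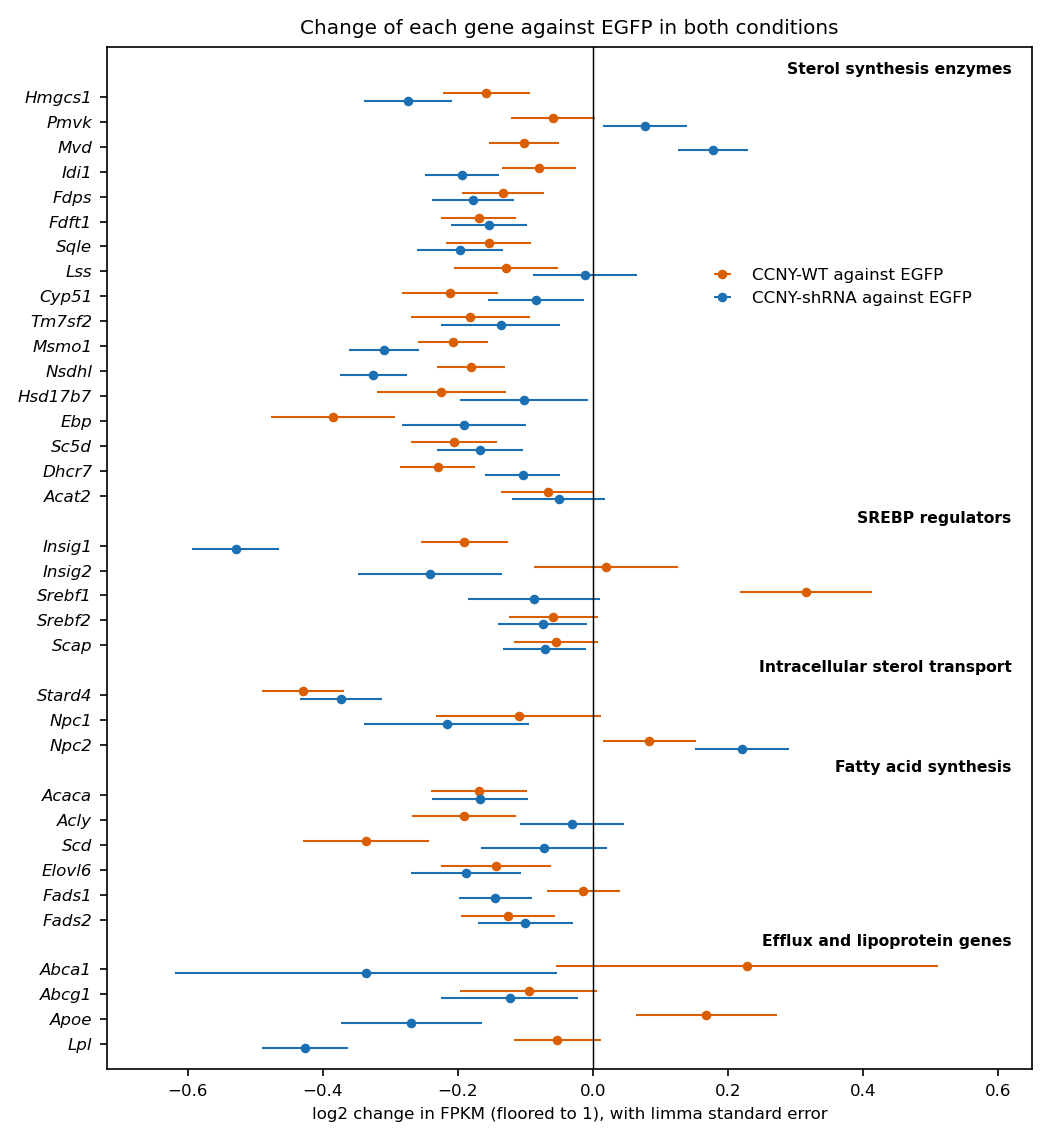
Log2 change in FPKM (floored to 1) of each of the 35 genes against EGFP, for CCNY-WT in orange and CCNY-shRNA in blue, with bars of 1 limma standard error, grouped by function. All 17 sterol synthesis enzymes lie left of 0 in CCNY-WT, and Insig1 lies farthest left in CCNY-shRNA, at -0.53.

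The enzymes of the mevalonate pathway, from acetyl-CoA to farnesyl diphosphate, did not all lie on one side of EGFP in CCNY-shRNA. Hmgcs1 was at 946 and 986 with EGFP, 883 and 849 with CCNY-WT, and 815 and 783 with CCNY-shRNA. The 3 conditions formed separate pairs, in that order, with log2 changes of -0.16 in CCNY-WT and -0.27 in CCNY-shRNA (standard error 0.065 in both). Fdps was at 715 and 730 with EGFP, 646 and 671 with CCNY-WT, and 623 and 654 with CCNY-shRNA. Its libraries of both conditions overlapped each other and lay below EGFP. Idi1, the isopentenyl diphosphate isomerase, was at 214 and 214 with EGFP, 210 and 196 with CCNY-WT, and 190 and 185 with CCNY-shRNA. Mvd, the decarboxylase that closes the mevalonate steps, went the other way in CCNY-shRNA. It was at 224 and 235 with EGFP, 216 and 211 with CCNY-WT, and 260 and 258 with CCNY-shRNA, which is 0.18 higher than EGFP on the log2 scale (standard error 0.052) and 0.28 higher than CCNY-WT. Pmvk, the kinase just before Mvd, was at 74.5 and 69.9 with EGFP, 66.8 and 71.9 with CCNY-WT, and 76.4 and 75.8 with CCNY-shRNA. Its CCNY-shRNA libraries were above the others, and its CCNY-WT and EGFP libraries overlapped. Acat2, which joins acetyl-CoA units at the entry of the pathway, overlapped between all 3 conditions, at 260 to 295.

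Of the enzymes from squalene to lanosterol, Fdft1 and Sqle were lower than EGFP in both conditions by similar amounts. Fdft1, the squalene synthase, was at 176 and 179 with EGFP, 163 and 152 with CCNY-WT, and 157 and 162 with CCNY-shRNA. Sqle, the squalene epoxidase, was at 330 and 357 with EGFP, 318 and 299 with CCNY-WT, and 305 and 294 with CCNY-shRNA. For both enzymes the 2 conditions overlapped each other and not EGFP. Lss, which closes the sterol rings, was at 108 and 118 with EGFP, 105 and 102 with CCNY-WT, and 120 and 105 with CCNY-shRNA. It was 0.13 lower in CCNY-WT and 0.01 lower in CCNY-shRNA on the log2 scale (standard error 0.076), and its CCNY-shRNA libraries lay on both sides of the EGFP ones.

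Of the enzymes that trim lanosterol to cholesterol, Msmo1 and Nsdhl, which act in removing the methyl groups at carbon C-4, had the lowest levels relative to EGFP in CCNY-shRNA. Msmo1, the methylsterol monooxygenase, was at 345 and 353 with EGFP, 299 and 306 with CCNY-WT, and 281 and 282 with CCNY-shRNA, so that the conditions formed 3 separate pairs. Its log2 change was -0.21 in CCNY-WT and -0.31 in CCNY-shRNA (standard error 0.051). Nsdhl, the dehydrogenase of the same step, was at 233 and 237 with EGFP, 209 and 205 with CCNY-WT, and 185 and 190 with CCNY-shRNA. It showed the same order, with log2 changes of -0.18 and -0.33 (standard error 0.050). The reductase Hsd17b7, which completes the step, was at 48.3 and 56.6 with EGFP, 45.7 and 43.9 with CCNY-WT, and 52.2 and 45.5 with CCNY-shRNA. Here CCNY-WT had the lowest mean, and the CCNY-shRNA and EGFP libraries overlapped.

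The other enzymes between lanosterol and cholesterol had their lowest mean in CCNY-WT. Ebp, the sterol isomerase, was at 55.9 and 48.9 with EGFP, 42.8 and 37.5 with CCNY-WT, and 47.2 and 44.4 with CCNY-shRNA. The 3 conditions did not overlap, and the log2 change was -0.38 in CCNY-WT and -0.19 in CCNY-shRNA (standard error 0.092). Dhcr7, which makes cholesterol from 7-dehydrocholesterol, was at 123 and 127 with EGFP, 110 and 103 with CCNY-WT, and 117 and 115 with CCNY-shRNA. It had the same order as Ebp, with log2 changes of -0.23 and -0.10. The desaturase Sc5d was at 131 and 136 with EGFP, 122 and 110 with CCNY-WT, and 121 and 117 with CCNY-shRNA. Cyp51, the lanosterol demethylase, was at 335 and 362 with EGFP, 315 and 287 with CCNY-WT, and 339 and 318 with CCNY-shRNA, and only CCNY-WT lay below both EGFP libraries. The reductase Tm7sf2 was at 77.5 and 90.0 with EGFP, 75.9 and 71.5 with CCNY-WT, and 80.5 and 71.7 with CCNY-shRNA, again with overlap between CCNY-shRNA and EGFP.

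As a group, all 17 sterol synthesis enzymes had a lower mean with CCNY-WT, at a median log2 change of -0.17 from EGFP, and in 15 of them (88.2%) the libraries did not overlap, where the share lower without overlap over all genes was 19.2%. In CCNY-shRNA 15 of 17 were lower, with a median of -0.15, and 10 (58.8%) were lower without overlap, where that share was 24.5%, Mvd and Pmvk being higher without overlap. With EGFP replicate 2 left out, the median in CCNY-WT was -0.12, and with CCNY-WT replicate 2 left out it was -0.13.

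The SREBP regulators differed among themselves. Insig1, the sterol-sensing anchor of Scap, was at 300 and 308 with EGFP, 275 and 258 with CCNY-WT, and 220 and 201 with CCNY-shRNA. The 3 conditions were separate, and the log2 change was -0.19 in CCNY-WT and -0.53 in CCNY-shRNA (standard error 0.065), the most negative of the 35 genes in CCNY-shRNA. Its relative Insig2 was at 41.7 and 34.0 with EGFP, 39.1 and 37.3 with CCNY-WT, and 33.9 and 30.0 with CCNY-shRNA. CCNY-shRNA lay just below the lower EGFP library, by less than the EGFP libraries differed from each other. Srebf1 was at 16.4 and 16.3 with EGFP, 20.6 and 20.1 with CCNY-WT, and 14.3 and 16.5 with CCNY-shRNA. CCNY-WT was above all other libraries, with a log2 change of 0.31 (standard error 0.098), whereas CCNY-shRNA lay on both sides of EGFP. Srebf2, the factor that drives sterol synthesis, was at 121 and 131 with EGFP, 122 and 121 with CCNY-WT, and 126 and 114 with CCNY-shRNA, and overlapped in all comparisons. The escort Scap stayed between 40.7 and 44.7 in all 6 libraries. The median log2 change of the 5 regulators was -0.06 in CCNY-WT and -0.09 in CCNY-shRNA. In CCNY-WT it was -0.0906 without EGFP replicate 1 and -0.0194 without EGFP replicate 2, and in CCNY-shRNA it was -0.14 without CCNY-shRNA replicate 1 and -0.15 without CCNY-shRNA replicate 2.

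**Figure D3:**
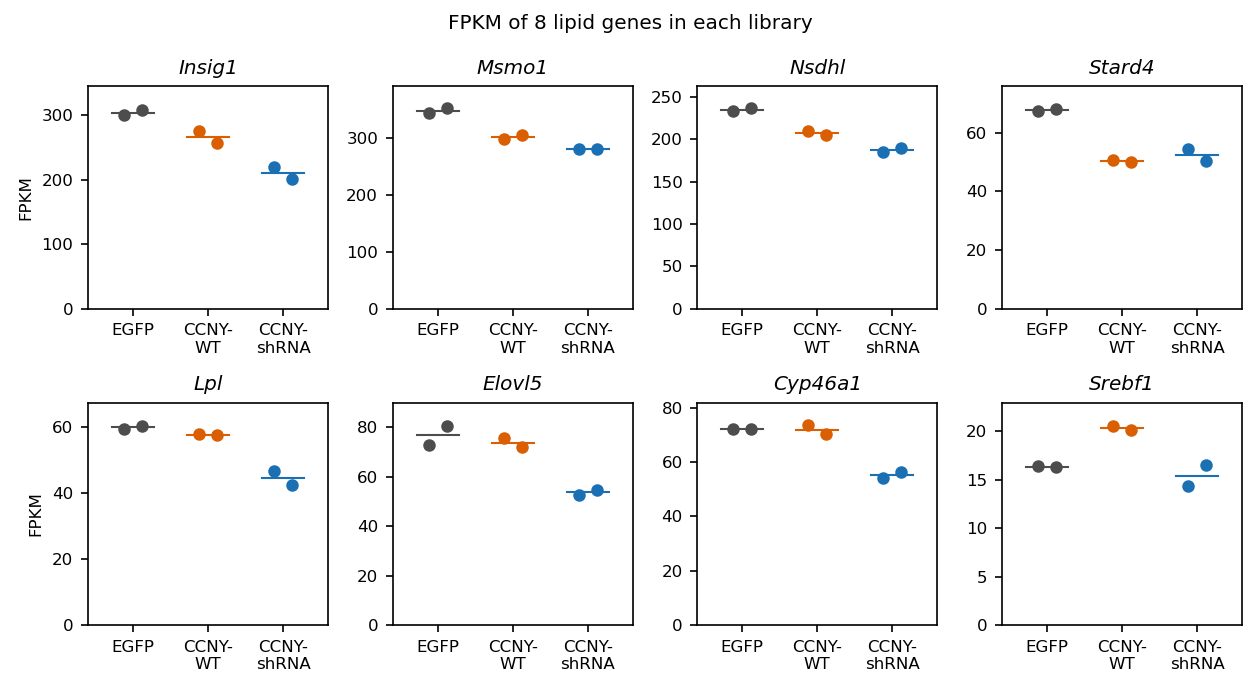
FPKM in each library of 6 of the 35 genes (Insig1, Msmo1, Nsdhl, Stard4, Lpl and Srebf1) and of the lipid genes Elovl5 and Cyp46a1, with points for libraries, bars for the mean of 2 libraries, and all axes starting at 0. Insig1 stands at 300 and 308 with EGFP and at 220 and 201 with CCNY-shRNA, while Srebf1 is highest in CCNY-WT.

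Of the genes that move sterol inside cells, Stard4 was lower in both conditions by about the same amount. Stard4, a carrier of sterol through the cytosol, was at 67.5 and 68.1 with EGFP, 50.7 and 50.0 with CCNY-WT, and 54.4 and 50.4 with CCNY-shRNA. Its log2 change was -0.43 in CCNY-WT and -0.37 in CCNY-shRNA (standard error 0.061), and the libraries of these conditions overlapped each other. Npc1, which releases sterol from lysosomes, was at 8.73 and 8.53 with EGFP, 8.38 and 7.63 with CCNY-WT, and 7.51 and 7.34 with CCNY-shRNA. Npc2, its soluble partner, was higher, at 29.9 and 28.5 with EGFP, 31.9 and 30.0 with CCNY-WT, and 34.2 and 33.8 with CCNY-shRNA. The partners thus lay on opposite sides of EGFP, with log2 changes in CCNY-shRNA of -0.22 for Npc1 (standard error 0.12) and 0.22 for Npc2 (standard error 0.069). The median of the 3 genes in CCNY-WT was -0.11, and it was -0.18 without CCNY-WT replicate 1 and -0.0426 without CCNY-WT replicate 2.

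All 6 genes of fatty acid synthesis had a lower mean than EGFP in both conditions, with median log2 changes of -0.16 in CCNY-WT and -0.12 in CCNY-shRNA. That of CCNY-shRNA was -0.0652 without EGFP replicate 2 and -0.0740 without CCNY-shRNA replicate 2. Scd1, the desaturase that makes monounsaturated fatty acids, was at 85.6 and 92.6 with EGFP, 75.2 and 66.2 with CCNY-WT, and 91.4 and 78.4 with CCNY-shRNA. It was 0.34 lower in CCNY-WT on the log2 scale (standard error 0.093), while its CCNY-shRNA libraries overlapped EGFP. Fads2, the desaturase of polyunsaturated fatty acids, was at 278 and 307 with EGFP, 268 and 268 with CCNY-WT, and 285 and 260 with CCNY-shRNA. Its partner Fads1 was at 95.9 and 102 with EGFP, 97.3 and 98.2 with CCNY-WT, and 88.6 and 90.0 with CCNY-shRNA. These neighbouring desaturases therefore differed in order, Fads2 being below EGFP without overlap in CCNY-WT and Fads1 in CCNY-shRNA. Acly, which supplies cytosolic acetyl-CoA, was at 282 and 301 with EGFP, 258 and 253 with CCNY-WT, and 307 and 265 with CCNY-shRNA. Acaca, the carboxylase that commits acetyl-CoA to fatty acids, was at 36.0 and 36.5 with EGFP, 33.2 and 31.3 with CCNY-WT, and 33.5 and 31.1 with CCNY-shRNA, below EGFP in both conditions. The elongase Elovl6 was at 61.0 and 58.2 with EGFP, 58.4 and 49.9 with CCNY-WT, and 53.2 and 51.4 with CCNY-shRNA. Only in CCNY-shRNA did its libraries not overlap EGFP.

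The genes of efflux and lipoproteins were lower in CCNY-shRNA, all 4 with a lower mean and a median log2 change of -0.30, whereas in CCNY-WT 2 were lower and 2 higher, with a median of 0.06. The latter median was 0.028 without EGFP replicate 1, 0.11 without EGFP replicate 2 and 0.030 with quantile normalization. Lpl, the lipoprotein lipase, was at 59.3 and 60.3 with EGFP, 57.7 and 57.5 with CCNY-WT, and 46.6 and 42.4 with CCNY-shRNA. Its log2 change was -0.43 in CCNY-shRNA (standard error 0.064) and -0.05 in CCNY-WT. Apoe, the main apolipoprotein of brain, was at 691 and 737 with EGFP, 819 and 785 with CCNY-WT, and 529 and 663 with CCNY-shRNA. CCNY-WT lay above and CCNY-shRNA below both EGFP libraries, with log2 changes of 0.17 and -0.27 (standard error 0.10), and the CCNY-shRNA libraries differed from each other by more than CCNY-shRNA replicate 2 differed from EGFP. Abca1 was at 3.01 and 3.42 with EGFP, 3.74 and 3.77 with CCNY-WT, and 1.85 and 3.48 with CCNY-shRNA. Its CCNY-shRNA replicate 1 was the lowest library and replicate 2 was above both EGFP libraries, so that its log2 change of -0.34 (standard error 0.28) rests on replicate 1. The related exporter Abcg1 stayed between 17.1 and 20.7 in all libraries. Without CCNY-shRNA replicate 1 the median of the 4 genes was -0.14.

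The summed astrocyte markers were lowest in CCNY-shRNA replicate 1, at 472, where Apoe and Abca1 were also lowest, and were at 545, within the range of EGFP, in CCNY-shRNA replicate 2, where Lpl and Abcg1 were lowest. In the means, 7 of the 9 markers were lower on average with CCNY-shRNA, at a median log2 change of -0.20 and 0 of 9 called by limma. In CCNY-WT 4 of the 9 were lower, with a median of 0.03. Of the 6 oligodendrocyte lineage markers tested, 5 had a lower mean in CCNY-shRNA, with a median of -0.16 and 0 called, and the log2 change of their sum was -0.20, against -0.14 for the astrocyte markers. The part of the markers of either cell type in the values of the 35 genes was not tested.

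**Figure D4:**
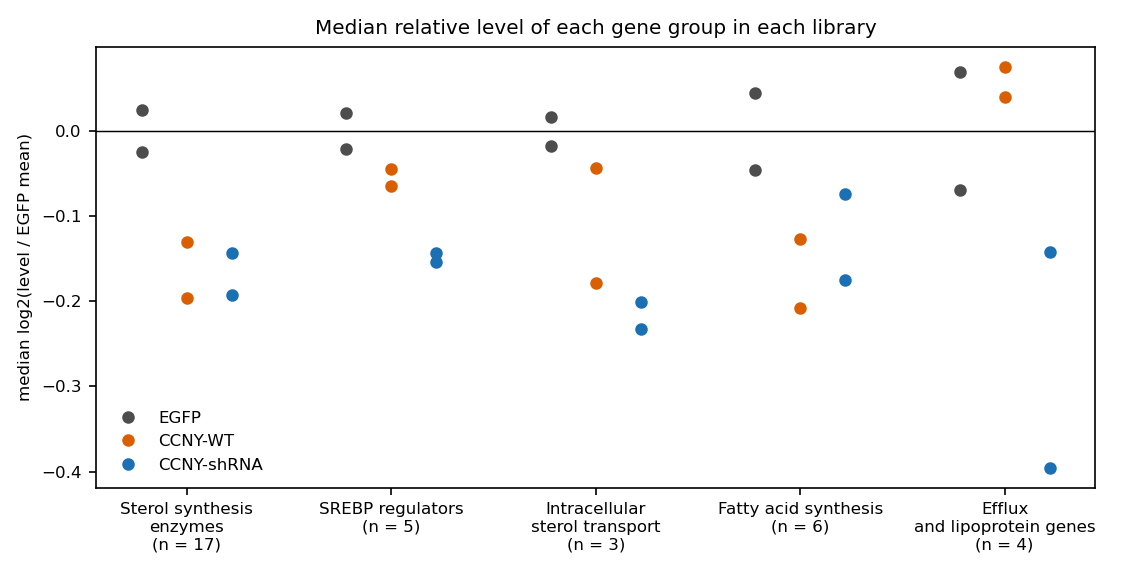
Median over the genes of each functional group of the log2 level relative to the mean of both EGFP libraries, with 1 point per library and colours for the 3 conditions. The sterol synthesis enzymes are at -0.13 and -0.20 in CCNY-WT and at -0.14 and -0.19 in CCNY-shRNA, and the efflux and lipoprotein genes are at -0.40 and -0.14 in CCNY-shRNA and above 0 in CCNY-WT.

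The levels of CCNY-shRNA and CCNY-WT were also compared directly. The means and overlaps of this comparison do not involve the EGFP libraries, while limma's standard errors and calls use the spread of all 6 libraries. Relative to CCNY-WT, CCNY-shRNA had a lower mean in 18 of 35 genes and a higher one in 17, with a median log2 change of -0.02, and 49.5% of all genes tested were lower. Both CCNY-shRNA libraries lay below both CCNY-WT libraries in 12 genes (34.3%), where the share over all genes was 21.9%, and above them in 8, where it was 20.3%. Limma called 0 of the 35 genes lower, where it called 0.196% of all genes, and 0 higher, where it called 0.0196%. At an unadjusted limma p under 0.05, 7 of the 35 were lower and 2 higher. Of all 10188 genes 725 were lower and 514 higher at that level. Without CCNY-shRNA replicate 2, 1 of the 35 was called.

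Limma called none of the following differences, and the groups were not tested against each other. Over all genes tested 21.9% were lower and 20.3% higher without overlap, and the median log2 change was 0.00098. The 5 SREBP regulators had a median of -0.26, with Srebf1 at -0.40 (standard error 0.098), Insig1 at -0.34 (standard error 0.065) and Insig2 at -0.26 (standard error 0.11) lower without overlap, whereas Srebf2 and Scap, both at -0.02 (standard errors 0.066 and 0.062), overlapped. Srebf1 was at 20.6 and 20.1 in CCNY-WT and at 14.3 and 16.5 in CCNY-shRNA, a gap wider than the spread within either condition. The 4 efflux and lipoprotein genes had a median of -0.41. Apoe, Lpl and Abca1 were lower without overlap, at -0.44 (standard error 0.10), -0.37 (standard error 0.064) and -0.56 (standard error 0.28), and Abcg1 overlapped. Abca1 was at 1.85 and 3.48 in CCNY-shRNA and at 3.74 and 3.77 in CCNY-WT, so that its change rests mostly on CCNY-shRNA replicate 1. Of the 17 sterol synthesis enzymes 6 were lower and 11 higher, with a median of 0.04. Without overlap 4 of the 17 (23.5%) were lower, near the share over all genes, and 5 were higher. Nsdhl at -0.14, Hmgcs1 at -0.12, Idi1 at -0.11 and Msmo1 at -0.10 were lower without overlap, and Mvd at 0.28, Ebp at 0.19, Pmvk at 0.14, Cyp51 at 0.13 and Dhcr7 at 0.13 were higher without overlap. Scd1 was 0.26 higher (standard error 0.093), and Stard4 differed by 0.06 (standard error 0.061), its libraries overlapping.

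**Figure D5:**
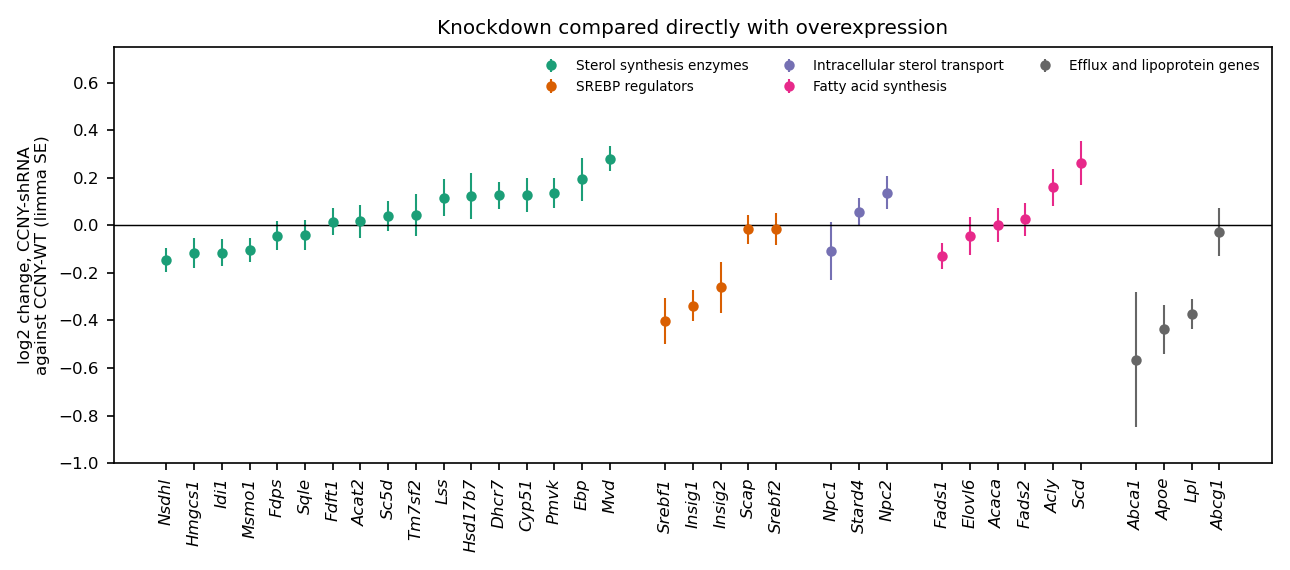
Log2 change of each of the 35 genes in CCNY-shRNA against CCNY-WT, with bars of 1 limma standard error, ordered by size within the 5 functional groups. Srebf1, Insig1 and Insig2 and, among the efflux and lipoprotein genes, Abca1, Apoe and Lpl lie below 0 by more than their bars, and the sterol synthesis enzymes spread from -0.14 for Nsdhl to 0.28 for Mvd.

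Other lipid genes were taken from a list made by function, of which 87 of 93 had a row and 79 were tested. This list too was made with earlier results of these data known. The p-values of its genes are therefore descriptive, and nothing is read from them or from the counts. In CCNY-shRNA 50 of the 79 had a lower mean than EGFP, with a median log2 change of -0.05, and in CCNY-WT 47 did, with a median of -0.03. Over all genes tested 49.8% were lower in CCNY-shRNA and 48.6% in CCNY-WT. Limma's test with Benjamini-Hochberg adjustment called 2 of the 79 lower in CCNY-shRNA, where it called 0.579% of all genes. It called 0 higher, where it called 0.167% of all genes. Elovl5, an elongase of polyunsaturated fatty acids, was at 73.0 and 80.4 with EGFP, 75.6 and 71.9 with CCNY-WT, and 52.7 and 54.7 with CCNY-shRNA. It fell by 0.51 on the log2 scale (limma adjusted p = 0.0277, standard error 0.066), and CCNY-WT overlapped EGFP. Cyp46a1, the neuronal hydroxylase that turns cholesterol over to a form that leaves the brain, was at 72.2 and 72.1 with EGFP, 73.6 and 70.4 with CCNY-WT, and 54.1 and 56.3 with CCNY-shRNA. It fell by 0.39 on the log2 scale (standard error 0.056, limma adjusted p = 0.0415). Over the alternatives the adjusted p of limma ranged from 0.0164 to 0.232 for Elovl5 and from 0.0270 to 0.264 for Cyp46a1, and both calls were lost without EGFP replicate 1, EGFP replicate 2, CCNY-WT replicate 1 or CCNY-WT replicate 2, that of Cyp46a1 also without either CCNY-shRNA library. Between CCNY-shRNA and CCNY-WT the limma adjusted p was 0.0556 for both genes, at log2 changes of -0.46 for Elovl5 and -0.38 for Cyp46a1. In CCNY-WT limma called 0 of the 79, where it called 0% of all genes lower and 0.00982% (Ccny alone) higher. At an unadjusted limma p under 0.05, 6 were lower and 3 higher, where 306 and 390 of all 10188 genes were. Between CCNY-shRNA and CCNY-WT limma called 0 of the 79, where it called 0.196% of all genes lower and 0.0196% higher. At an unadjusted limma p under 0.05, 9 were lower and 7 higher, where 725 and 514 of all 10188 genes were.

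Past the study's threshold, 7 of the 79 genes were lower and 3 higher in CCNY-shRNA, where 7.59% and 5.52% of all genes were. In CCNY-WT 2 of the 79 were lower and 4 higher, where 3.76% and 4.59% of all genes were. Some of the 79 genes passed a threshold without overlap between libraries and did not pass limma's test, and 7 of these are described here. Erlin2, a membrane protein of the endoplasmic reticulum, was at 23.9 and 26.3 with EGFP against 17.9 and 19.8 with CCNY-shRNA (log2 change -0.41, limma adjusted p = 0.0901). Sort1, a sorting receptor, was at 110 and 117 with EGFP against 93.6 and 82.7 with CCNY-shRNA (log2 change -0.37, limma adjusted p = 0.0672). Slc25a1, the mitochondrial citrate carrier, was higher, at 74.7 and 77.3 with EGFP against 110 and 92.5 with CCNY-shRNA (log2 change 0.41, limma adjusted p = 0.0717). Pnpla3, a lipase of lipid droplets, was low in both conditions, at 26.5 and 25.5 with EGFP, 20.1 and 18.3 with CCNY-WT, and 21.3 and 18.8 with CCNY-shRNA. Cyb5r3, a reductase that supplies electrons to desaturases and sterol oxidases, was high in both, at 65.4 and 62.8 with EGFP, 78.5 and 85.9 with CCNY-WT, and 77.6 and 82.6 with CCNY-shRNA. Thrsp in CCNY-WT and the elongase Elovl7 in both conditions also passed, at levels of 1.03 to 3.50 over the libraries of these comparisons, near the filter. Over these 7 genes and the 3 comparisons, the adjusted p-values of limma were at least 0.0672.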

How the data were processed

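RNA was measured in 6 libraries of cultured rat hippocampal neurons, 2 each for EGFP, CCNY-WT and CCNY-shRNA, as the sample titles give them. The authors prepared poly(A) libraries, sequenced 150-bp paired-end reads, aligned these to the rn4 genome by TopHat 2 and quantified genes by Cufflinks; the submitters' processing notes list TopHat2 2.0, Bowtie2 2.1.0, SAMtools 0.1.19, Cufflinks 2.2.1 and R 3.1.0. The deposited table holds FPKM values of 17066 genes, 1 for each library. It gives no read counts, so absolute depth is unknown; relative depth was estimated from the steps of genes with FPKM under 0.3. The gene annotation and the handling of reads shared with close copies (such as Scd1 and its relatives) are not given in the sources used here. Lower or higher FPKM is relative to all fragments of a library.

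Following the study, values under 1 were set to 1 before taking log2. Tests used limma 3.58.1 in R 4.3.3 (lmFit, contrasts.fit, eBayes with trend) on all 6 libraries and the 10188 genes that reached FPKM 1 in at least 2 of them, with Benjamini-Hochberg adjustment over all of them and a threshold of 0.05. On simulated data with 200 genes changed by a log2 of 1 in CCNY-shRNA against EGFP, 100% were recovered with 12 false calls among 10185 genes. The 37 genes and all lists were chosen with earlier results of these data known. Values per library were given for all genes with a row that passed a threshold of the study or limma's test or were the 3 most abundant of their group, and, beyond this rule, for other members to complete the pathway; of the other lipid genes, for those called and those past a threshold of the study without overlap. The values of 4 further genes under this rule are not reported here. Symbols were matched to RefSeq (GRCr8), which was used only for names and promoter windows. Alternatives covered the offset (1 or 0.1 added), the filter (mean FPKM of at least 5, or none), upper quartile scaling, quantile normalization, the spread, a replicate block, only the 4 libraries compared, and leaving out each library. Python 3.11.15, pandas 2.3.3, numpy 2.4.6, scipy 1.17.1 and matplotlib 3.10.9 were used.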

Additional observations from a re-analysis of the deposited data

How the results depend on the processing

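The 5 calls of limma among the 35 genes in CCNY-shRNA against EGFP became 0 without a filter on low values, 0 in eBayes without a trend, 3 with upper quartile scaling, 1 with a replicate block, 1 with only the 4 libraries of both groups, and 0 to 3 with a library left out. The 2 calls among the other lipid genes became 0 without a filter, 0 without a trend, 1 with the replicate block, 0 with only the 4 libraries, and 0 to 2 with a library left out. Between CCNY-shRNA and CCNY-WT, where 0 genes were called, leaving out a library gave 0 to 1 of the 35 genes and 0 to 1 of the other lipid genes, and the other lipid genes gave 2 with log2(FPKM + 1), 1 with log2(FPKM + 0.1) and 2 with a mean FPKM of at least 5. The 4 genes past the threshold of the study in CCNY-shRNA became 7 with quantile normalization, and the 4 in CCNY-WT became 2 to 4 with a library left out. Medians with a library left out ranged from -0.15 to -0.0874 (SREBP regulators) and from -0.40 to -0.14 (efflux and lipoprotein genes) in CCNY-shRNA, and from -0.20 to -0.12 (sterol synthesis enzymes), from -0.0906 to -0.0194 (SREBP regulators) and from -0.18 to -0.0426 (sterol transport) in CCNY-WT. For alternatives that test fewer or more genes, or fewer libraries, that change is part of their construction; for the others the cause was not tested. Replicate numbers are shared by the 3 conditions, but the deviations of same-numbered libraries had correlations of 0.085, -0.020 and 0.081 over 8060 genes, so the numbers were not taken to pair samples, and the replicate block lowered the calls over all genes from 76 to 39 in CCNY-shRNA against EGFP and from 22 to 18 in CCNY-shRNA against CCNY-WT, and left the counts of the 35 genes and of the other lipid genes in the other comparisons at 0. Of 2196 values of single genes under alternatives, 0 changed direction past a threshold, 2065 stayed on their side within the spread, and 114 moved by more than the spread. The other 17 were counted as lost calls, but this count does not hold all the lost calls of the 5 genes, Elovl5 and Cyp46a1. Under the 9 alternatives that left out no library of the groups compared, Insig1 was called in 7. Elovl5 was called in 6, Nsdhl, Lpl and Cyp46a1 in 5 each, Msmo1 in 4 and Stard4 in 3. With FPKM alone, depth per gene is unknown, and 2 libraries per condition limit the precision of every difference.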
